A study of Homo sapiens with 6 samples.

Results

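The genes described here are 193 protein-coding zinc finger genes with ZNF symbols that lie outside chromosome 19 and were expressed in 2 Ewing sarcoma cell lines. They were chosen from the deposited FPKM table (fragments per kilobase of transcript, scaled to the mapped fragments of the library) by 3 criteria, namely a ZNF symbol followed by a number, a position on another chromosome than 19, and a value above 1 FPKM with vehicle in both lines. Of 514 ZNF genes listed as protein-coding, 261 lie outside chromosome 19. Of these, 193 passed in both lines, 12 in 1 line only, and 56 were at or below 1 FPKM in both. The vehicle values therefore chose the genes and are given as a description.

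The study exposed A673 and SKNMC cells to THZ1, a covalent inhibitor of the transcription kinase CDK7 that also reaches CDK12 and CDK13, and sequenced their RNA. Each line had 3 conditions, the vehicle DMSO, 50 nM THZ1 and 200 nM THZ1, all taken at 6 h. There was 1 library per line and condition, 6 in all, so no comparison between conditions has a replicate check and no p-value is given. Both are established Ewing sarcoma lines carrying an EWS-FLI1 fusion, grown in the same serum-containing medium, and no culture without DMSO and no other time point was analysed here.

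Most ZNF proteins are built from tandem C2H2 zinc fingers, in which a pair of cysteines and a pair of histidines hold a zinc ion and the residues between them read DNA bases. Many also carry a KRAB domain, which recruits the corepressor TRIM28 and, through it, SETDB1 and H3K9 methylation, most often at transposable elements. Others carry a SCAN domain, through which they pair with each other, or neither domain, and some ZNF symbols belong to proteins that bind RNA, ribosomes or the cytoskeleton rather than DNA.

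The repeat unit shared by these proteins is shown by 1 finger from each of 6 genes on which the results turn, as 84 coding bases in GRCh37 read 5′ to 3′ from the first cysteine codon through the linker to the next finger. Capitals mark the codons of the paired cysteines and histidines. The first 4 genes decreased at least 2-fold at both doses in both lines, and ZNF664 and ZNF721 were above DMSO at 50 nM on the deposited scale, though with scaling to ribosomal protein genes ZNF664 was below it in both lines and ZNF721 in SKNMC.
ZNF691 (chr1:43316885-43316968, plus strand): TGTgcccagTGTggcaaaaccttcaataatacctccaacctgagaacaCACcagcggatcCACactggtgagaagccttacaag
ZNF672 (chr1:249142158-249142241, plus strand): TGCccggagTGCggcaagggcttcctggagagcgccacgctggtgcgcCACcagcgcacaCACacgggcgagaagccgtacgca
ZNF142 (chr2:219506796-219506879, minus strand): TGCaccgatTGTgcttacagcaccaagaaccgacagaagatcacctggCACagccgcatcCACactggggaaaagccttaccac
ZNF689 (chr16:30616386-30616469, minus strand): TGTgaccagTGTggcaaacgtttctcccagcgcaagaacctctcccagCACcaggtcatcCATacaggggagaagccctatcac
ZNF664 (chr12:124496956-124497039, plus strand): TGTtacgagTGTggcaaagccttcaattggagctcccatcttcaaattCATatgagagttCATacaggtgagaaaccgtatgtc
ZNF721 (chr4:437506-437589, minus strand): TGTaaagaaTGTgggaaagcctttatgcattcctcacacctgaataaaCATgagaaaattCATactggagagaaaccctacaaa
All 6 stretches lie in coding exons, and finger numbers 1 of 7 in ZNF691, 7 of 13 in ZNF672, 30 of 36 in ZNF142, 2 of 10 in ZNF689, 4 of 9 in ZNF664 and 3 of 23 in ZNF721 were taken because they end in the canonical linker.

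Libraries summed to between 451872 and 462997 FPKM over the 27420 listed genes, and the read depth behind the FPKM values is unknown. All 10 Ewing sarcoma markers were above 1 FPKM with DMSO in both lines, with 504 and 313 FPKM of CD99 in A673 and SKNMC, and 31.5 and 27.3 FPKM of FLI1. Of 11 markers of other cell types, 7 were under 1 FPKM with DMSO in both lines, and of these MYOG, CD3E, VWF, DES and CDH1 were listed at 0 with DMSO in both. KRT18 and COL1A1 were above 1 FPKM in both. PTPRC, a leukocyte gene, was at 10.2 FPKM and DCN, a fibroblast gene, at 30.9 FPKM in SKNMC with DMSO, against 0.0201 and 0.309 FPKM in A673. The part of PTPRC and DCN in the differences between the lines given below was not tested. Since FPKM are shares of each library, an RNA loss common to all genes cannot be seen, and in a culture fewer cells of a kind and less RNA per cell cannot be told apart.

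With DMSO the 193 genes were modestly expressed. Their median was 5.75 FPKM in A673 and 6.47 FPKM in SKNMC, compared with 15.6 and 16.1 FPKM over the 10383 protein-coding genes above 1 FPKM in both lines. The 5 with the highest mean were ZNF703, ZNF207, ZNF664, ZNF706 and ZNF532. In all sets of values below, the order within a line is DMSO, 50 nM and 200 nM THZ1. ZNF703, a transcriptional corepressor amplified in some breast cancers, stood at 143, 51.9 and 22.8 FPKM in A673 and 94.3, 51.8 and 25.1 FPKM in SKNMC. ZNF207 (BuGZ), which helps load checkpoint proteins at kinetochores, stood at 85.6, 74.8 and 53.7 FPKM in A673 and 107, 112 and 74.6 FPKM in SKNMC. ZNF703 had decreased at least 2-fold on (FPKM + 1) in A673 at both doses and in SKNMC at 200 nM, while ZNF207 did not pass 2-fold in any comparison on the deposited scale. With ribosomal protein scaling ZNF207 was at -1.01 and -1.11 at 200 nM in A673 and SKNMC, and ZNF703 at -1.25 in SKNMC at 50 nM. ZNF706, a small protein with 1 finger, stood at 54.5, 31.2 and 18.2 FPKM in A673 and 58.5, 43.5 and 37.2 FPKM in SKNMC. How many of all protein-coding genes had DMSO values within 2-fold between the lines was not computed, and the filter required both values above 1 FPKM. Between lines, 175 of the 193 DMSO values lay within 2-fold on FPKM + 1, 8 were at least 2-fold higher in A673 and 10 at least 2-fold higher in SKNMC. Among the former, ZNF804A, a gene linked to schizophrenia risk, stood at 5.62, 3.92 and 1.84 FPKM in A673 and 1.32, 0.504 and 0.287 FPKM in SKNMC. Among the latter, ZNF783 stood at 2.297, 0.769 and 1.39 FPKM in A673 and 13.04, 7.87 and 8.06 FPKM in SKNMC. Just inside the 1 FPKM threshold were ZNF782, ZNF717 and ZNF852, whose lower DMSO values were 1.04, 1.06 and 1.07 FPKM. Just outside were ZNF169, ZNF341 and ZNF862, at 0.967, 0.9104 and 0.872 FPKM.

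Most of the ZNF genes outside chromosome 19 had lower FPKM with THZ1 than with DMSO in both lines. A gene was counted as decreased where log2 of (FPKM + 1) with THZ1 over DMSO was -1 or lower, that is 2-fold or more. In A673 at 50 nM, 81 of the 193 genes (42.0%) decreased at least 2-fold, compared with 15.9% of the 10383 protein-coding genes under the same filter. At 200 nM in A673 the count was 117 (60.6%), compared with 25.7%. In SKNMC, 65 genes (33.7%) decreased at 50 nM, compared with 15.9%, and 99 (51.3%) at 200 nM, compared with 28.8%. None of the 193 increased at least 2-fold in any of the 4 comparisons, where 0.308% of all protein-coding genes did so in A673 at 50 nM, 0.0963% in A673 at 200 nM, 0.443% in SKNMC at 50 nM and 0.318% in SKNMC at 200 nM. The 50 nM and 200 nM comparisons of a line share its DMSO library, which also took part in choosing the genes.

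The shift was one of the whole distribution. The median log2 change (50 nM, then 200 nM) was -0.80 and -1.22 in A673 and -0.63 and -1.03 in SKNMC, compared with -0.27 and -0.40 in A673 and -0.31 and -0.57 in SKNMC over all protein-coding genes under the filter. The summed FPKM of the 193 genes fell from 1955 with DMSO to 1154 and 802 in A673, leaving 59.04% and 41.01%. In SKNMC the sum went from 2049 to 1372 and 982 FPKM, leaving 66.98% and 47.95%. The number of these genes under 1 FPKM, which was 0 with DMSO by the choice of genes, reached 40 and 66 in A673 and 35 and 44 in SKNMC. The share of all protein-coding genes that came under 1 FPKM was not computed. With DMSO the 193 genes lay nearer to 1 FPKM, with medians of 5.75 and 6.47 FPKM compared with 15.6 and 16.1. None was listed at 0 in any library. A decrease of at least 4-fold was reached by 14 and 30 genes in A673 and 9 and 16 in SKNMC, compared with 1.42% and 4.88% in A673 and 1.32% and 3.87% in SKNMC of all protein-coding genes.

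**Figure D1:**
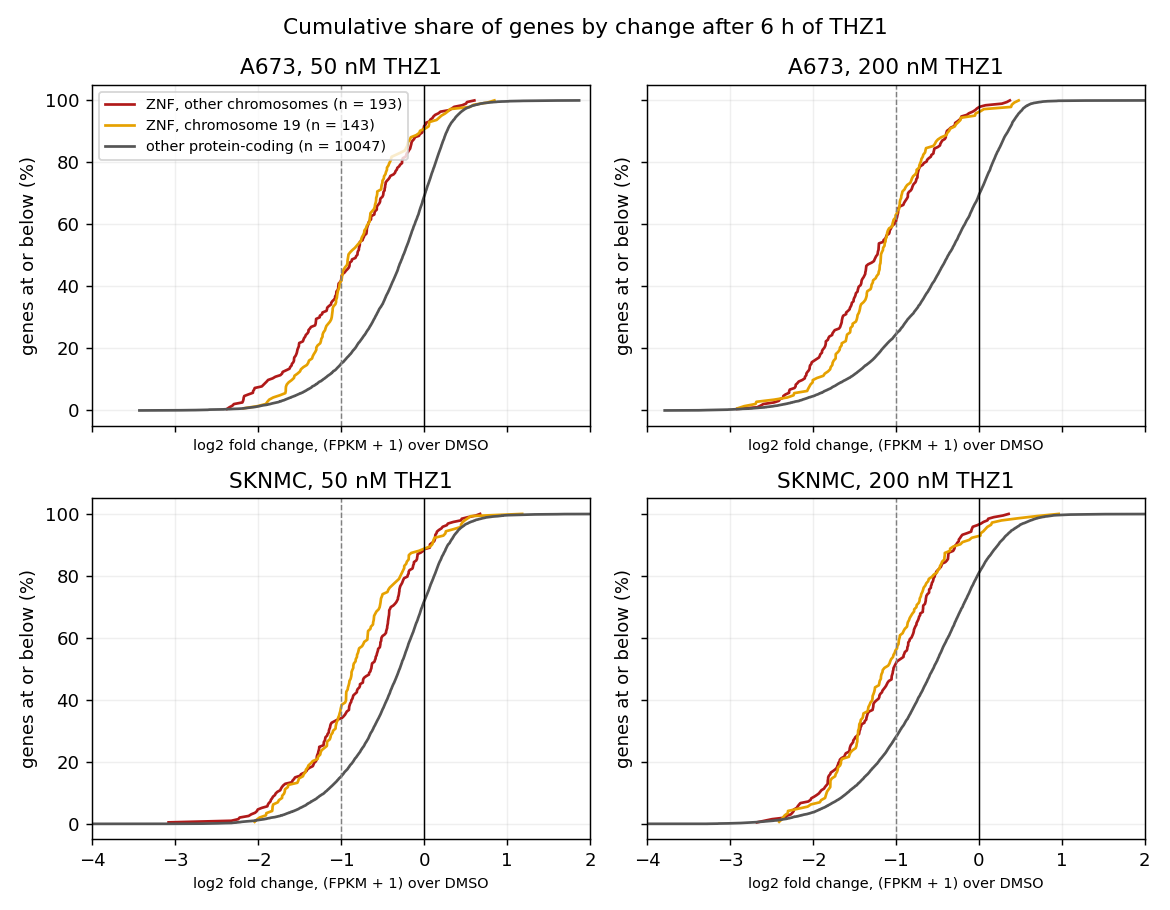
Cumulative share of genes (%) against log2 fold change of (FPKM + 1) over DMSO, in 4 panels by line and dose, with 1 library per condition and the axis limited to -4 to 2. The curve of the 193 ZNF genes outside chromosome 19 lies left of that of other protein-coding genes in each panel and crosses the dashed 2-fold line at 42.0% and 60.6% in A673 and 33.7% and 51.3% in SKNMC.

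**Figure D2:**
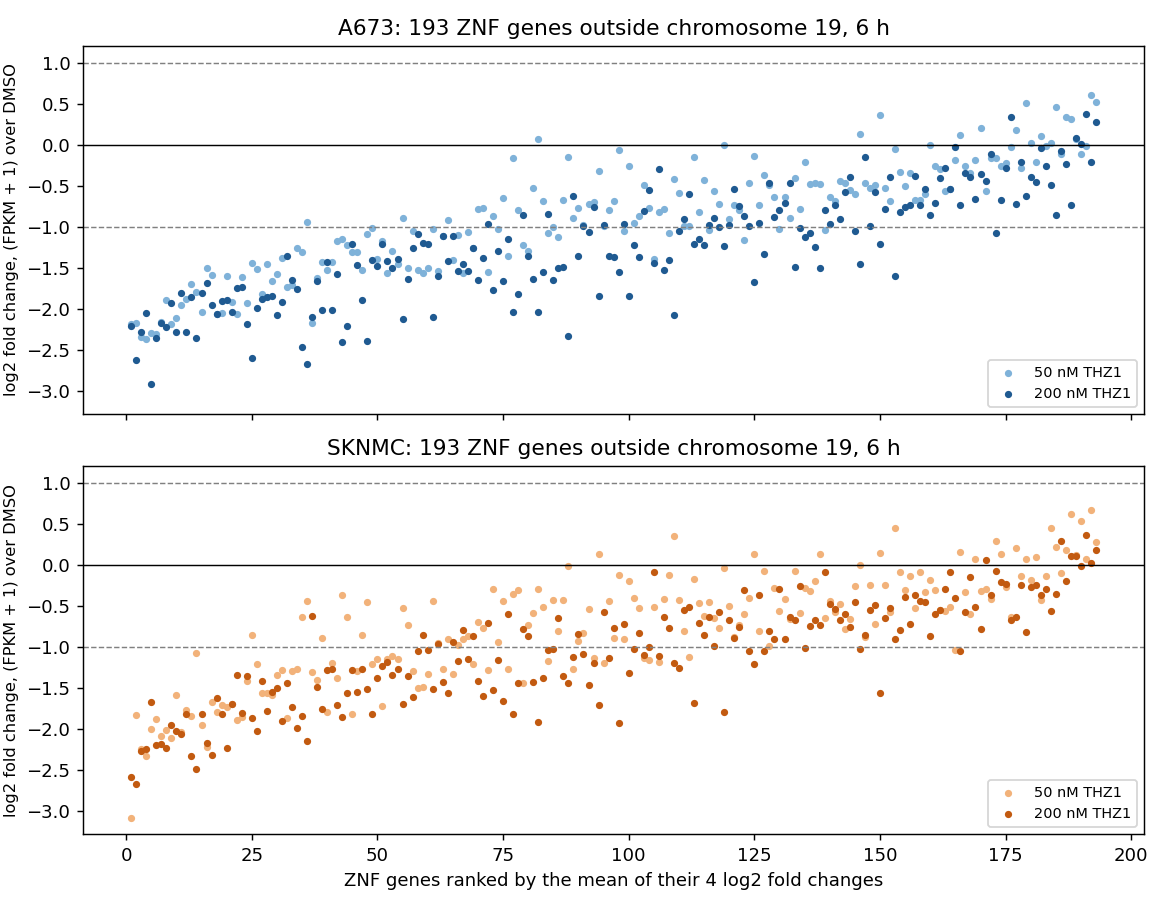
Each of the 193 ZNF genes outside chromosome 19 ranked by its mean log2 fold change, with the change of (FPKM + 1) over DMSO on the y axis and 1 point per dose in each line. No point lies above the upper dashed 2-fold line, and the highest single value is 0.68 for ZNF652.

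The scaling of the libraries moved the size of these counts but not their order against the background. With libraries scaled to a common 75th percentile, 64 and 101 genes decreased in A673 and 54 and 68 in SKNMC, and with scaling to the median of ribosomal protein genes 94 and 145 in A673 and 89 and 141 in SKNMC. The background moved with them, to 11.5% and 18.3% in A673 and 10.4% and 14.6% in SKNMC under the former and to 21.5%, 35.1%, 28.7% and 54.1% in the same order under the latter.

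The lowest mean change over the 4 comparisons was that of ZNF691. It stood at 4.64, 0.244 and 0.222 FPKM in A673 and 10.8, 0.394 and 0.969 FPKM in SKNMC, so all 4 THZ1 libraries were under 1 FPKM. Its log2 changes (50 nM, then 200 nM) were -2.18 and -2.21 in A673 and -3.08 and -2.58 in SKNMC. ZNF672 followed, with 8.21, 1.04 and 0.487 FPKM in A673 and 14.9, 3.47 and 1.49 FPKM in SKNMC. Its value at 200 nM was below that at 50 nM in both lines. ZNF142, whose loss of function causes a neurodevelopmental disorder and whose protein has 36 fingers, the most in the set, stood at 12.3, 1.62 and 1.73 FPKM in A673 and 12.2, 1.79 and 1.74 FPKM in SKNMC. The values at both doses were close to each other in both lines, with log2 changes of -2.35 and -2.29 in A673 and -2.24 and -2.27 in SKNMC. ZNF740, a short protein with 2 classical fingers, stood at 11.2, 1.35 and 1.95 FPKM in A673 and 19.95, 3.19 and 3.41 FPKM in SKNMC. Here the 200 nM value was the higher of the THZ1 values in both lines.

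The other 6 of the 10 lowest were ZNF623, ZNF7, ZNF696, ZNF689, ZNF75A and ZNF3. ZNF696 stood at 7.095, 0.803 and 0.798 FPKM in A673 and 7.63, 1.04 and 0.902 FPKM in SKNMC, with log2 changes of -2.17 and -2.17 in A673 and -2.08 and -2.18 in SKNMC. ZNF142, ZNF691, ZNF696 and ZNF740 each passed 4-fold in every one of their 4 comparisons on the deposited scale, as did 0.491% of all protein-coding genes. With 75th percentile scaling ZNF691 alone did, and the SKNMC 200 nM changes of ZNF142, ZNF696 and ZNF740 were -1.90, -1.90 and -1.81. ZNF689, a KRAB protein, stood at 13.3, 2.84 and 2.06 FPKM in A673 and 10.6, 1.86 and 1.47 FPKM in SKNMC, and ZNF75A, with KRAB and SCAN domains, at 7.52, 0.867 and 1.24 FPKM in A673 and 8.53, 1.201 and 1.46 FPKM in SKNMC. ZNF623 stood at 14.6, 2.19 and 1.07 FPKM in A673 and 10.8, 1.93 and 2.68 FPKM in SKNMC. The lines did not share a dose order for ZNF623, whose 200 nM value was below its 50 nM value in A673 and above it in SKNMC. ZNF7, a KRAB protein, had log2 changes of -2.31 and -2.36 in A673 and -1.88 and -2.20 in SKNMC, and ZNF3, also with KRAB, stood at 16.1, 2.94 and 2.52 FPKM in A673 and 20.6, 6.18 and 4.32 FPKM in SKNMC. Of these 10 genes, ZNF142 overlaps BCS1L, ZNF740 overlaps CSAD, ZNF7 overlaps COMMD5, ZNF75A overlaps TIGD7 and ZNF3 overlaps ZSCAN21 on the other strand. The sources used here do not say whether reads were assigned by strand, so reads of these pairs cannot be told apart.

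At the other end, few of the genes kept or exceeded their DMSO value. ZNF664, the third most abundant of the set, stood at 64.98, 68.5 and 68.8 FPKM in A673 and 67.7, 73.7 and 73.3 FPKM in SKNMC. ZNF789, a KRAB protein, stood at 2.42, 3.902 and 3.15 FPKM in A673 and 5.55, 6.92 and 6.42 FPKM in SKNMC. These were the genes above their DMSO value in all 4 THZ1 libraries on the deposited scale, or 2 of the 193, compared with 10.1% of all protein-coding genes. Under scaling to the 75th percentile there were 8, these 2 and ZNF185, ZNF236, ZNF532, ZNF618, ZNF652 and ZNF655, and under scaling to ribosomal protein genes none. Under the latter, ZNF664 was below DMSO in all 4, from -0.15 to -0.48 on the log2 scale, and ZNF789 in both SKNMC libraries, at -0.08 and -0.32. ZNF789 overlaps ZNF394 on the other strand, and 27.8% of the 100-base windows of its transcript also occur in other genes. ZNF394 itself stood at 5.77, 2.88 and 1.65 FPKM in A673 and 6.47, 4.51 and 2.41 FPKM in SKNMC.

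ZNF652, a repressor that partners with CBFA2T3, stood at 3.15, 5.33 and 2.59 FPKM in A673 and 4.17, 7.26 and 4.27 FPKM in SKNMC. ZNF292, a gene mutated in intellectual disability, stood at 5.31, 6.82 and 2.78 FPKM in A673 and 7.96, 12.8 and 8.63 FPKM in SKNMC. Both were higher at 50 nM than with DMSO or 200 nM in each line, on the deposited scale, with log2 changes at 50 nM of 0.61 and 0.68 for ZNF652 and 0.31 and 0.62 for ZNF292 in A673 and SKNMC. ZNF618, a partner of the 5-hydroxymethylcytosine reader UHRF2, stood at 5.75, 7.52 and 4.75 FPKM in A673 and 5.41, 6.26 and 4.58 FPKM in SKNMC. ZNF236, with 30 fingers, stood at 2.01, 1.77 and 2.03 FPKM in A673 and 3.12, 4.95 and 3.07 FPKM in SKNMC. ZNF185 is a LIM-domain protein of the actin cytoskeleton with no classical finger. It stood at 2.82, 2.79 and 3.95 FPKM in A673 and 1.48, 1.601 and 2.18 FPKM in SKNMC, highest at 200 nM in both lines on the deposited scale, and with ribosomal protein scaling its log2 change at 200 nM was 0.10 in A673 and -0.03 in SKNMC. ZNF532, which forms a complex with ZNF592, ZNF687 and ZMYND8, stood at 39, 35.8 and 36.99 FPKM in A673 and 35.2, 32.9 and 43.3 FPKM in SKNMC and differed from DMSO by at most 0.29 on the log2 scale as deposited. Its SKNMC 200 nM change was 0.82 with 75th percentile scaling, and its SKNMC 50 nM change -0.49 with ribosomal protein scaling. On the deposited scale, 11 genes were above DMSO at 50 nM in both lines (ZNF267, ZNF292, ZNF592, ZNF618, ZNF652, ZNF654, ZNF664, ZNF704, ZNF710, ZNF721 and ZNF789) and 3 at 200 nM (ZNF185, ZNF664 and ZNF789). These were 5.699% and 1.55% of the 193, compared with 21.4% and 14.9% of all protein-coding genes. With 75th percentile scaling the counts were 25 and 12, and with ribosomal protein scaling 2 and 0. None of the 193 reached a 2-fold increase under any of these scalings.

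**Figure D3:**
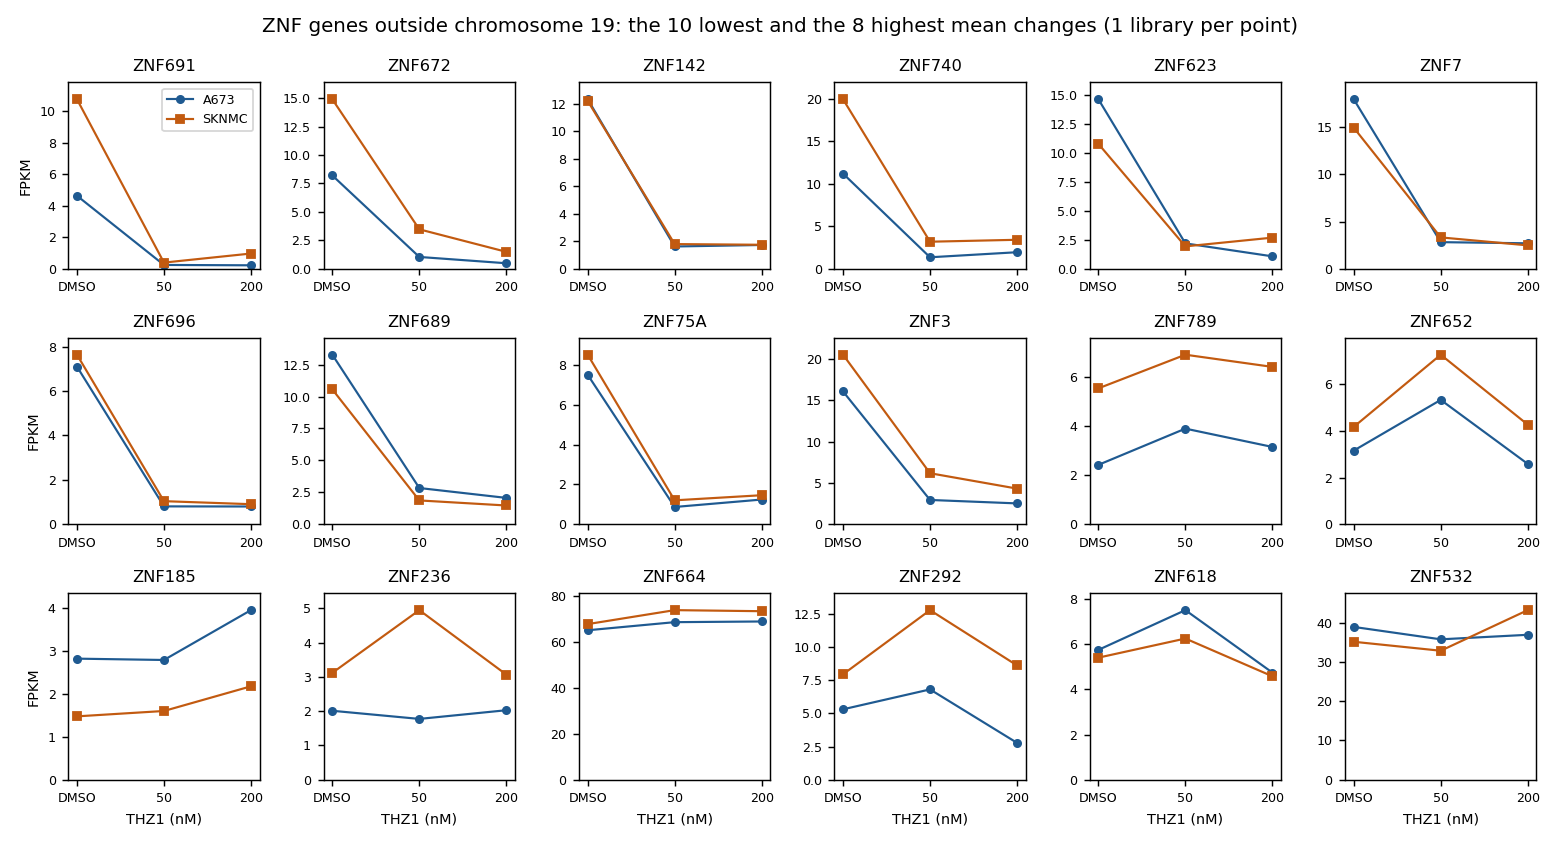
FPKM (y axis, from 0, scaled to each gene) with DMSO, 50 nM and 200 nM THZ1 for the 10 ZNF genes with the lowest and the 8 with the highest mean change, in A673 (circles) and SKNMC (squares), 1 library per point. The 10 lowest genes all had most of their FPKM loss at 50 nM, and ZNF652 and ZNF292 peaked at 50 nM in both lines.

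The promoters of a pair of genes from each end show what stood at their start sites. They are RefSeq windows in GRCh38.p14, from 250 bases before to 50 after the annotated start, read 5′ to 3′ on the gene's strand. Capitals mark, on either strand, the CCAAT box, the GC box, the E-box and the letters ACTACAA, with which the motif bound by ZNF143 begins.
ZNF691 (chr1:42846363-42846662, plus strand): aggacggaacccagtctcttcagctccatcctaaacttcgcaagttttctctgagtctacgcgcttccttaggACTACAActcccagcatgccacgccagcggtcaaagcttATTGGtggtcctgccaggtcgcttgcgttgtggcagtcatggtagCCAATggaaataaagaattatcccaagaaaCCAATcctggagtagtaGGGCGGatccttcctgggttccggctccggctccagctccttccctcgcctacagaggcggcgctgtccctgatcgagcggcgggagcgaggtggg
ZNF672 (chr1:248837974-248838273, plus strand): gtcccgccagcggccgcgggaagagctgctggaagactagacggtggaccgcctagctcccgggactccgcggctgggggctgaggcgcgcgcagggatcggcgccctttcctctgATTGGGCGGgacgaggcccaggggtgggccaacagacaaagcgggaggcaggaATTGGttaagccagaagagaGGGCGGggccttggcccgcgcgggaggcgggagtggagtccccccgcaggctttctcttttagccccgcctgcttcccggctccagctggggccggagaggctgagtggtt
ZNF789 (chr7:99472640-99472939, plus strand): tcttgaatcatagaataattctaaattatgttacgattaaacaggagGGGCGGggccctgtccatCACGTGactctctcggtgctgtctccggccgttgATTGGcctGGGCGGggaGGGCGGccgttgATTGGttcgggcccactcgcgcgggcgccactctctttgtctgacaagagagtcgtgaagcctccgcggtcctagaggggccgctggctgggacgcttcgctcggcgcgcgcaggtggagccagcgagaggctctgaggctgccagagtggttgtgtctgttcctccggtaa
ZNF652 (chr17:49362201-49362500, minus strand): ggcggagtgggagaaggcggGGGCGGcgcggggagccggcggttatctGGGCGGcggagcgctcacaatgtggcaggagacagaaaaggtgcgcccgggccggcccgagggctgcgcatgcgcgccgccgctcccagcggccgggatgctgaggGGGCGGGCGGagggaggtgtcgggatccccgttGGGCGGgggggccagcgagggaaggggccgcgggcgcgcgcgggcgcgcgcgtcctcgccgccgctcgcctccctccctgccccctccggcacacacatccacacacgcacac
ZNF691 and ZNF672, at the low end, hold CCAAT and GC boxes, and so does ZNF789, at the high end. The promoter of ZNF652 holds GC boxes without a CCAAT box.

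Of the 162 of the 193 genes with a promoter in that table, 45.1% held CCAAT on either strand, compared with 36.4% of the 15843 promoters of protein-coding genes and 35.7% of all 27305 promoters. The GC box, searched as GGGCGG, was present in 64.2% compared with 58.5% of those of protein-coding genes and 44.6% of all, and the TATA box, searched as TATAAA, in 3.09% compared with 9.63% and 11.95%. The letters ACTACAA were found in 11 of the 162 (6.79%), in 3.14% of those of protein-coding genes and in 2.95% of all. The E-box, searched as CACGTG, was found in 7.41%, 8.88% and 7.43%. The median GC content was 63.3%, compared with 62.7% for protein-coding genes, less than 1 percentage point away, and 58.3% for all promoters. The genes with and without a CCAAT box had median log2 changes at 200 nM of -1.36 and -1.21 in A673, and both were -1.03 in SKNMC. The 104 genes with a GC box had medians of -1.26 in A673 and -1.14 in SKNMC at 200 nM, and the 58 without one -1.12 and -0.85. These are matches of letters and not measured binding. The 15843 promoters were not limited to genes above 1 FPKM, as the 162 were. Being a ZNF gene and being expressed therefore cannot be told apart in these shares.

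The genes differed in the dose at which their FPKM fell. In A673, 139 of the 193 (72.0%) were lower at 200 nM than at 50 nM, compared with 52.0% of all protein-coding genes under the filter. In SKNMC, 128 (66.3%) were lower at 200 nM, compared with 64.1%, close to the background. With ribosomal protein scaling the SKNMC shares were 77.2% of the 193 and 78.2% of all, in the opposite order, and with 75th percentile scaling they were 52.3% and 45.7%. In both lines together 112 were lower at 200 nM, 38 higher at 200 nM, and 43 lower in 1 line only. For these joint counts the shares of all protein-coding genes were not computed, so they are a description only.

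ZNF217, a breast cancer oncoprotein that works with the CoREST complex, had the largest step from 50 to 200 nM. It stood at 12.9, 13.6 and 2.38 FPKM in A673 and 5.94, 4.67 and 0.844 FPKM in SKNMC. ZNF12, a KRAB protein, stood at 7.41, 6.58 and 0.673 FPKM in A673 and 11.2, 11.1 and 3.48 FPKM in SKNMC. ZNF184, a KRAB protein with 19 fingers, stood at 6.97, 3.15 and 0.251 FPKM in A673 and 6.596, 4.59 and 0.711 FPKM in SKNMC. ZNF263, with KRAB and SCAN domains, stood at 16.7, 13.2 and 3.94 FPKM in A673 and 22.99, 25.3 and 6.33 FPKM in SKNMC. For ZNF217, ZNF12 and ZNF263, the log2 change at 50 nM lay between -0.32 and 0.13 in both lines, and at 200 nM each had decreased at least 2-fold. The ZNF263 values carry an added uncertainty, since 70.7% of its 100-base windows also occur in other genes. The largest steps the other way were those of ZNF641, ZNF76, ZNF397 and ZNF251. ZNF641 stood at 6.41, 1.53 and 2.78 FPKM in A673 and 3.45, 0.837 and 1.73 FPKM in SKNMC, and ZNF76, a close relative of ZNF143, at 5.36, 1.72 and 2.52 FPKM in A673 and 11.9, 3.76 and 6.502 FPKM in SKNMC. Their 200 nM values lay between the 50 nM and the DMSO value in each line.

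A673 and SKNMC gave close accounts of the same genes. At 50 nM, 57 genes decreased in both lines, which was 70.4% of the A673 list and 87.7% of the SKNMC list, and at 200 nM 91 did, 77.8% and 91.9% of these lists. Of all protein-coding genes, 11.3% at 50 nM and 20.6% at 200 nM decreased in both lines. These were 70.9% of both lists at 50 nM, and 79.9% and 71.3% at 200 nM. Spearman's rho between the lines' log2 changes, across the 193 genes, was 0.87 at 50 nM and 0.82 at 200 nM, close to the 0.84 and 0.82 of all protein-coding genes. Genes are not independent replicates, and each line's changes share 1 DMSO library. The A673 change was the lower in 127 genes at 50 nM and in 125 at 200 nM (65.8% and 64.8%), compared with 46.5% and 37.8% of all protein-coding genes. With ribosomal protein scaling these counts were 97 and 96 genes (50.3% and 49.7%), compared with 27.2% and 22.6%, and with 75th percentile scaling 135 and 156 (69.9% and 80.8%), compared with 52.6% and 55.8%.

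ZNF692, an AICAR-response-element binding protein, had the largest difference between the lines. It stood at 26.6, 5.12 and 5.46 FPKM in A673 and 26.9, 10.3 and 17.2 FPKM in SKNMC. ZNF195, a KRAB protein, stood at 18, 6.23 and 5.96 FPKM in A673 and 18.4, 12.5 and 17.2 FPKM in SKNMC. Both genes had close DMSO values in the lines, and with THZ1 the SKNMC values were the higher at both doses. ZNF124 and ZNF778, both KRAB proteins, had the next differences in that direction. ZNF124 stood at 6.95, 4.97 and 0.882 FPKM in A673 and 8.103, 10.6 and 2.97 FPKM in SKNMC. In the other direction stood ZNF385A, ZNF691, ZNF785 and ZNF786. ZNF385A, which binds RNA and partners with p53, stood at 3.38, 3.31 and 4.54 FPKM in A673 and 11.7, 7.24 and 7.01 FPKM in SKNMC. On the deposited scale it was above DMSO at 200 nM in A673 and below it in SKNMC, with log2 changes of -0.02 and 0.34 in A673 and -0.63 and -0.67 in SKNMC. With 1 library per condition, none of these differences between lines could be set against a replicate spread.

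Of the list of RNA, ribosome and splicing proteins, 14 of 14 genes were in the set, and few had decreased at the low dose. The numbers decreased were 2 and 6 in A673 and 2 and 5 in SKNMC, or 14.3% and 42.9% in A673 and 14.3% and 35.7% in SKNMC. Among all protein-coding genes the shares were 15.9% and 25.7% in A673 and 15.9% and 28.8% in SKNMC, so the list was near the background at 50 nM. ZNF830, a splicing-associated protein, and ZNF346, which binds double-stranded RNA, were the lowest. ZNF830 stood at 4.64, 0.8697 and 0.452 FPKM in A673 and 11.2, 2.83 and 1.44 FPKM in SKNMC, and ZNF346 at 7.68, 1.45 and 1.36 FPKM in A673 and 11.4, 3.24 and 3.67 FPKM in SKNMC. Both had decreased at least 2-fold in each of the 4 comparisons, although with 75th percentile scaling ZNF346 stood at -0.98 in SKNMC at 200 nM. ZNF622, which helps mature the large ribosomal subunit, stood at 18.02, 17.2 and 5.46 FPKM in A673 and 16.7, 15.3 and 3.66 FPKM in SKNMC. ZNF330, a nucleolar protein, stood at 28.96, 26.2 and 8.41 FPKM in A673 and 28.97, 31.8 and 11.97 FPKM in SKNMC. Their log2 changes at 50 nM lay between -0.14 and 0.13, and both had decreased at 200 nM in both lines, although ZNF330 in SKNMC was at -0.71 with 75th percentile scaling. ZNF598, the ubiquitin ligase that detects collided ribosomes, stood at 35.3, 25.4 and 17.2 FPKM in A673 and 30.9, 23.2 and 14.4 FPKM in SKNMC. ZNF593, which joins the pre-60S particle, had log2 changes of -0.64 and -0.72 in A673 and -0.42 and -0.90 in SKNMC, and ZNF326, a member of the DBIRD complex that couples elongation to splicing, of -0.46 and -0.14 in A673 and -0.88 and -0.85 in SKNMC. ZNF638, a partner of the HUSH silencing complex, stood at 23.9, 12.3 and 11.6 FPKM in A673 and 38.3, 26.8 and 23.7 FPKM in SKNMC. The remaining genes of the list not named above, ZNF106, ZNF277 and ZNF511, had mean log2 changes of -0.55, -0.66 and -0.59.

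The list of promoter binders and chromatin partners showed a wider range. All 20 of 20 were in the set, and the numbers decreased were 6 and 12 in A673 and 5 and 10 in SKNMC, or 30% and 60% in A673 and 25% and 50% in SKNMC, compared with 15.9% and 25.7% in A673 and 15.9% and 28.8% in SKNMC of all protein-coding genes. ZNF143, an activator that binds many promoters, stood at 10.5, 3.43 and 2.04 FPKM in A673 and 9.56, 3.33 and 1.83 FPKM in SKNMC. ZNF410, an activator of the CHD4 gene, stood at 29.98, 11.5 and 4.59 FPKM in A673 and 18.5, 11.6 and 4.46 FPKM in SKNMC. Both were lower at 200 nM than at 50 nM in each line, although 74.5% of the windows of ZNF410 are shared with other genes. CHD4 itself stood at 49.9, 47.9 and 42.8 FPKM in A673 and 69.6, 75.3 and 76.2 FPKM in SKNMC. ZNF202, a repressor of lipid genes, had log2 changes of -2.06 and -2.07 in A673 and -1.79 and -1.62 in SKNMC, and ZNF281 of -1.18 and -1.58 in A673 and -1.38 and -1.71 in SKNMC. ZNF687 stood at 7.65, 1.64 and 1.75 FPKM in A673 and 7.99, 2.67 and 1.71 FPKM in SKNMC, while its complex partners ZNF532 and ZNF592 did not decrease 2-fold in any library on the deposited scale. With ribosomal protein scaling ZNF592 was at -1.09 in SKNMC at 200 nM. ZNF592 stood at 13.02, 13.2 and 8.95 FPKM in A673 and 11.9, 16.7 and 7.73 FPKM in SKNMC. ZNF148 (ZBP-89), a GC-box binder, stood at 11.5, 12.7 and 3.56 FPKM in A673 and 16.2, 16.2 and 7.45 FPKM in SKNMC. ZNF711, a partner of the demethylase PHF8, stood at 9.14, 8.79 and 2.35 FPKM in A673 and 14.1, 19.5 and 7.03 FPKM in SKNMC, and ZNF644, which joins the EHMT1 and EHMT2 methyltransferases, at 23.9, 23.9 and 12.8 FPKM in A673 and 35.97, 31.5 and 19.3 FPKM in SKNMC. ZNF148 and ZNF711 were near or above DMSO at 50 nM, and ZNF148 had decreased at 200 nM in both lines. Its SKNMC change, -1.03, was -0.54 with 75th percentile scaling. ZNF24, ZNF131, ZNF335, ZNF395, ZNF408, ZNF516 and ZNF219, the other members of this list, had mean log2 changes from -1.04 in ZNF24 to -0.31 in ZNF219.

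Of the list of developmental and signalling zinc fingers, 10 of 14 genes passed the filter, and 4 did not and were left out. The numbers decreased were 1 and 4 in A673 and 0 and 3 in SKNMC, or 10% and 40% in A673 and 0% and 30% in SKNMC. Of all protein-coding genes, 15.9% and 25.7% decreased in A673 and 15.9% and 28.8% in SKNMC. The list's share was no larger than the background at 50 nM, and near it at 200 nM in SKNMC. ZNF703 supplied the single decrease at 50 nM in A673. ZNF423, a BMP pathway partner of SMAD proteins, stood at 2.37, 1.32 and 1.32 FPKM in A673 and 1.904, 1.03 and 1.75 FPKM in SKNMC. ZNF827, which brings the NuRD complex to telomeres, stood at 2.17, 1.73 and 0.451 FPKM in A673 and 5.97, 4.76 and 2.46 FPKM in SKNMC, and ZNF318 at 5.73, 2.86 and 0.907 FPKM in A673 and 7.08, 5.53 and 1.98 FPKM in SKNMC. ZNF704 stood at 52.3, 59.1 and 31.2 FPKM in A673 and 15.3, 17.8 and 9.45 FPKM in SKNMC, above DMSO at 50 nM on the deposited scale, though not with ribosomal protein scaling (log2 changes of -0.05 and -0.17), and below it at 200 nM in both lines. ZNF280D and ZNF407 had mean log2 changes of -0.49 and -0.31. All of these 10 genes but ZNF703 and ZNF219 are long, from 62.3 kb in ZNF318 to 513 kb in ZNF407.

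Short ZNF genes decreased more often than long ones. Spearman's rho between span and mean log2 change was 0.46 across the 193 genes and 0.09 across the 10190 other protein-coding genes, as a description over genes that share libraries. At 50 and 200 nM, rho across the 193 genes was 0.45 and 0.34 in A673 and 0.40 and 0.36 in SKNMC. Across the other genes it was 0.18 and -0.03 in A673 and 0.17 and 0.04 in SKNMC. For the number of classical fingers rho was -0.05 over 188 genes. Of the 55 genes spanning under 15 kb, 65.5% and 69.1% in A673 and 47.3% and 65.5% in SKNMC had decreased at 50 and 200 nM. Of the 38 genes of 60 kb or more, the shares were 7.89% and 36.8% in A673 and 13.2% and 31.6% in SKNMC. The same shares among other protein-coding genes were 22.97% and 27.7% in A673 and 22.4% and 31.3% in SKNMC under 15 kb, and 7.21% and 20.3% in A673 and 7.69% and 21.98% in SKNMC at 60 kb or more. Thus the long genes of the set decreased at 50 nM in A673 about as often as other long genes, and the short ones more often than other short genes in each comparison. ZNF691, the lowest gene, spans 5.87 kb, and the 10 lowest span at most 21.7 kb. The 8 highest span at least 30.8 kb, up to 180.3 kb in ZNF618.

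The share that decreased rose and then fell over the bins of DMSO level, which chose the genes. Spearman's rho of the mean DMSO level with the log2 change was -0.02 and -0.25 in A673 and 0.07 and -0.22 in SKNMC, near 0 at 50 nM. Between 5 and 10 FPKM, 54.4% and 71.9% in A673 and 52.6% and 68.4% in SKNMC of the 57 genes decreased, compared with 21.99% and 32.9% in A673 and 21.4% and 35.7% in SKNMC of the other protein-coding genes at that level. Between 10 and 20 FPKM, 41.2% and 67.6% in A673 and 38.2% and 61.8% in SKNMC of the 34 genes decreased, compared with 20.5% and 34.4% in A673 and 19.9% and 36.4% in SKNMC. Above 20 FPKM the shares were 26.1% and 47.8% in A673 and 8.696% and 39.1% in SKNMC of the 23 genes, compared with 9.95% and 17.6% in A673 and 9.95% and 22.6% in SKNMC. The share was larger in the ZNF genes at each of the 4 levels and in each comparison, except above 20 FPKM at 50 nM in SKNMC. For genes near 1 FPKM the added 1 makes a 2-fold decrease hard to reach, and among the 79 genes at 1 to 5 FPKM 37.97% and 53.2% in A673 and 25.3% and 37.97% in SKNMC reached it.

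**Figure D4:**
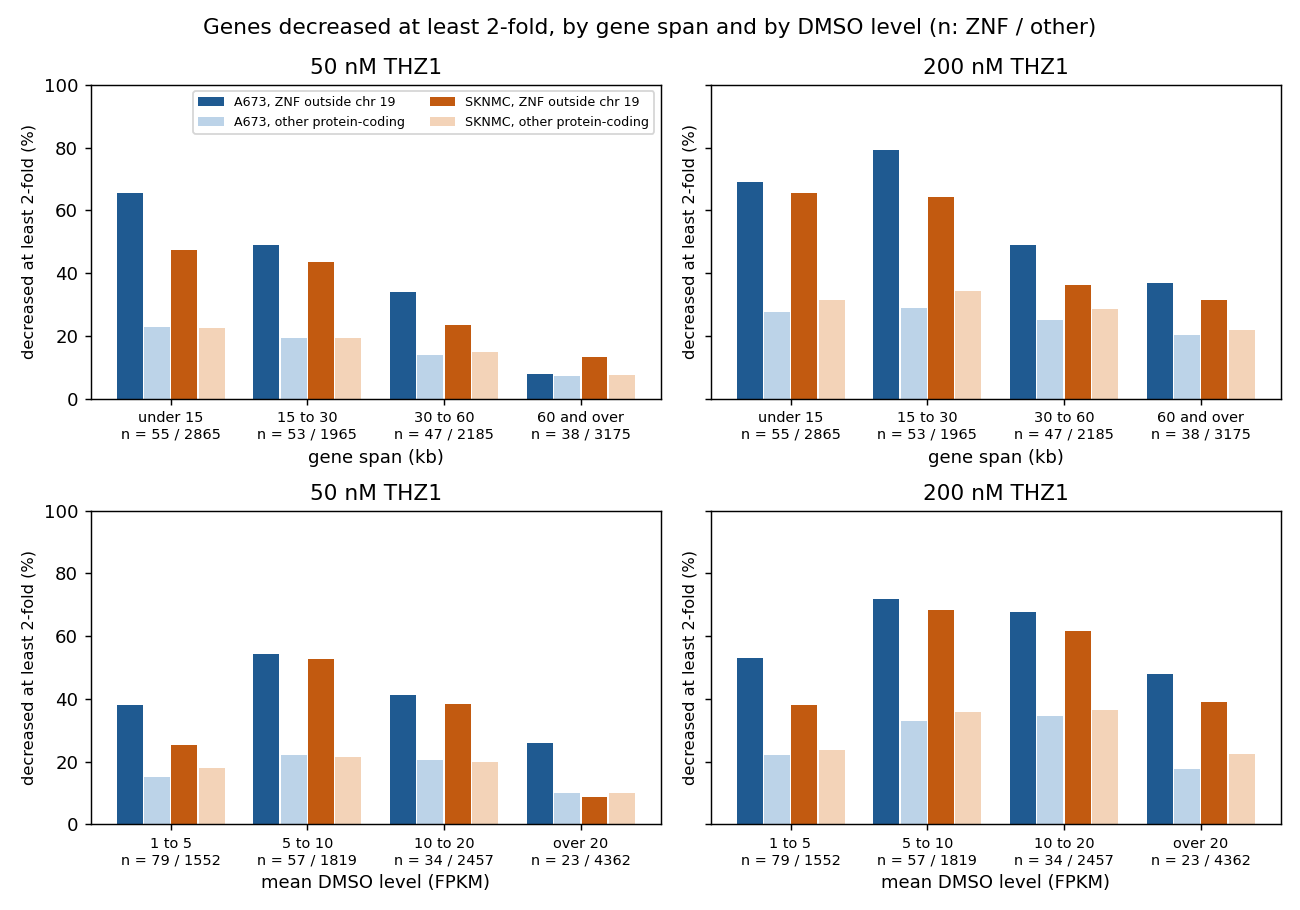
Share of genes decreased at least 2-fold (%, bars from 0) in bins of gene span (upper panels, kb) and of mean DMSO level (lower panels, FPKM), for the ZNF genes outside chromosome 19 (dark) and other protein-coding genes (pale), with both n under each bin. At 50 nM in A673 the share among the ZNF genes is 65.5% under 15 kb and 7.89% at 60 kb or more.

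Counted at 2-fold on (FPKM + 1), genes with and without a KRAB domain decreased in similar shares. Proteins could be translated for 188 of the 193 genes, and 90 of them held a KRAB domain and 98 did not. Of the KRAB genes, 46.7% and 61.1% in A673 and 33.3% and 50% in SKNMC had decreased, compared with 38.8% and 59.2% in A673 and 34.7% and 52.04% in SKNMC of the genes without one. The KRAB genes had lower DMSO medians, 4.18 FPKM in A673 and 5.07 in SKNMC, compared with 9.01 and 9.53. The added 1 therefore hides more of their change. Without it, the median share of DMSO left in KRAB genes was 36.5% and 25.1% in A673 and 47.7% and 37.8% in SKNMC. In the genes without KRAB it was 53.4% and 31.2% in A673 and 63.0% and 41.3% in SKNMC. The 17 genes with a SCAN domain had 10 and 15 in A673 and 6 and 12 in SKNMC decreased, or 58.8% and 88.2% in A673 and 35.3% and 70.6% in SKNMC, compared with 15.9% and 25.7% in A673 and 15.9% and 28.8% in SKNMC of all protein-coding genes. Most of these, 12, also hold KRAB, and ZNF24 and ZNF174 are among those that do not. The SCAN calls came from a profile seeded with only 2 proteins. ZNF24, a regulator of oligodendrocyte differentiation, stood at 21.6, 14.7 and 6.29 FPKM in A673 and 28.4, 18.6 and 9.93 FPKM in SKNMC. ZNF174 stood at 5.56, 1.39 and 0.818 FPKM in A673 and 7.53, 1.88 and 1.48 FPKM in SKNMC, and both had decreased at 200 nM in both lines, although ZNF24 in SKNMC was at -0.93 with 75th percentile scaling. The number of classical fingers ranged from 0 to 36 with a median of 9. Genes with 1 to 5, 6 to 10 and over 10 fingers had median log2 changes at 200 nM in A673 of -1.21, -1.13 and -1.36, and in SKNMC of -0.89, -1.01 and -1.04. No classical finger was found in ZNF185, ZNF259, ZNF330, ZNF703 and ZNF839.

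Although chromosome 19 holds the largest ZNF clusters, 64 of the 193 genes lay in 13 smaller runs of at least 3 genes with under 250 kb between neighbours (coordinates in hg19). The run at chr7:148766734-149194908 holds ZNF786, ZNF398, ZNF282, ZNF212, ZNF783, ZNF777 and ZNF746, and its median log2 changes were -1.51 and -1.99 in A673 and -1.08 and -1.82 in SKNMC. All of its genes but ZNF783 had decreased at 200 nM in both lines. At that dose 60.6% in A673 and 51.3% in SKNMC of the 193 genes had decreased, and 25.7% and 28.8% of all protein-coding genes. ZNF746 (PARIS), a parkin substrate, stood at 6.19, 2.86 and 0.645 FPKM in A673 and 7.01, 4.55 and 1.47 FPKM in SKNMC. ZNF282, a binder of a retroviral promoter element, stood at 15.5, 3.76 and 2.22 FPKM in A673 and 17.7, 7.87 and 2.33 FPKM in SKNMC. ZNF212 and ZNF786 had mean log2 changes of -1.94 and -1.90, and ZNF398 and ZNF777 of -1.68 and -1.10.

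Both runs on chromosome 16 mixed strong and weak changes. At chr16:3162560-3493542 lie ZNF205, ZNF213, ZNF200, ZNF263, ZNF75A, ZNF174 and ZNF597. ZNF200 had log2 changes of -1.70 and -1.86 in A673 and -1.85 and -2.33 in SKNMC, whereas ZNF213, within the same run, had -0.26 and -0.71 in A673 and -0.30 and -0.60 in SKNMC. At chr16:30389426-30798523 lie ZNF48, ZNF771, ZNF768, ZNF747, ZNF764, ZNF688, ZNF785, ZNF689 and ZNF629, the largest run. The numbers decreased among its 9 genes were 6 and 5 in A673 and 7 and 5 in SKNMC. Of the 193 genes, 42.0% and 60.6% had decreased in A673 and 33.7% and 51.3% in SKNMC. The shares of all protein-coding genes were 15.9% and 25.7% in A673 and 15.9% and 28.8% in SKNMC. ZNF764 stood at 6.89, 1.38 and 2.07 FPKM in A673 and 6.21, 0.972 and 1.66 FPKM in SKNMC, and its neighbour ZNF785 at 2.81, 2.36 and 2.75 FPKM in A673 and 3.73, 1.298 and 2.57 FPKM in SKNMC. ZNF747 and ZNF785 share 37.3% and 36.99% of their 100-base windows with other genes, so reads could have been split between copies.

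The run at the end of chromosome 12, chr12:133498018-133783698, stayed closer to DMSO. It holds ZNF605, ZNF26, ZNF84, ZNF140, ZNF891, ZNF10 and ZNF268, with median log2 changes of -0.53 and -0.95 in A673 and -0.72 and -0.68 in SKNMC. ZNF10 (KOX1), the source of the KRAB domain used in CRISPR interference, stood at 2.35, 1.32 and 0.691 FPKM in A673 and 4.39, 3.56 and 2.67 FPKM in SKNMC. ZNF140 was the lowest of the run, at 7.47, 1.84 and 1.01 FPKM in A673 and 6.91, 2.12 and 1.800 FPKM in SKNMC, but 81.2% of its windows are shared with other genes. On chromosome 8, chr8:145946297-146176274, ZNF7 and ZNF16 decreased in all comparisons, while ZNF517 had log2 changes of -0.80 and -0.75 in A673 and -0.73 and -0.75 in SKNMC. On chromosome 3, chr3:44481261-44702283, ZNF445, which protects imprinted loci, stood at 2.22, 0.828 and 0.453 FPKM in A673 and 5.86, 3.99 and 3.202 FPKM in SKNMC, and its neighbour ZNF35 at 3.97, 1.08 and 0.462 FPKM in A673 and 5.41, 1.65 and 0.621 FPKM in SKNMC. The paralogs ZNF354A, ZNF354B and ZNF354C on chromosome 5, chr5:178138592-178510538, had mean log2 changes of -1.35, -0.71 and -0.20. On chromosome 4, chr4:53178-492945, ZNF595, ZNF141 and ZNF721 gave 1 decrease in all, that of ZNF141 at 200 nM in A673. In that comparison 60.6% of the 193 genes and 25.7% of all protein-coding genes had decreased. ZNF721, with 23 fingers, stood at 12.3, 17.2 and 6.33 FPKM in A673 and 14.4, 16.9 and 10.98 FPKM in SKNMC. The remaining runs lay on chromosomes 1, 7 and 10. On chromosome 10, chr10:44051791-44144304, ZNF239 and ZNF485 had 50 nM values of 0.165 and 0.0944 FPKM in A673, down from 3.52 and 1.696 with DMSO, and the third gene, ZNF32, stood at 10.1, 5.25 and 8.004 FPKM in A673 and 10.5, 4.04 and 4.33 FPKM in SKNMC.

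**Figure D5:**
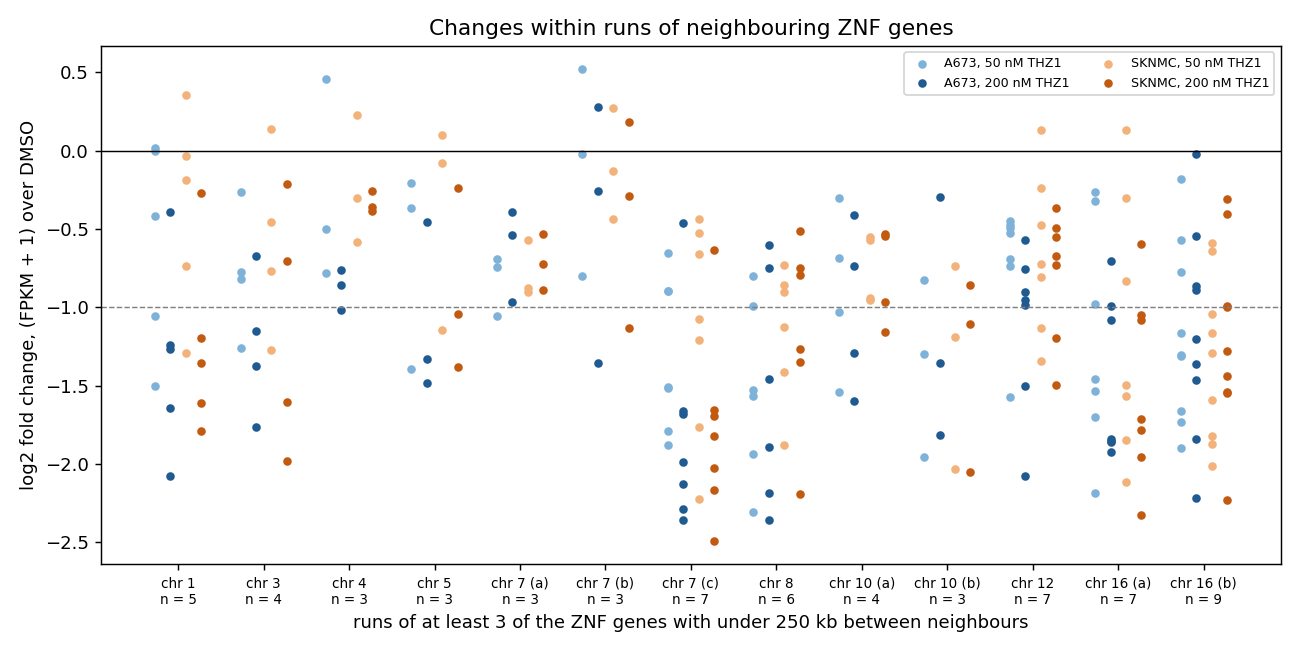
Log2 fold change of (FPKM + 1) over DMSO for the 64 ZNF genes in 13 runs of neighbours outside chromosome 19, 1 point per gene and comparison, with runs on 1 chromosome lettered by position. In the third run on chromosome 7, 6 of 7 genes lie at or below the dashed 2-fold line at 200 nM in both lines, and in the run on chromosome 12 only 2 of 7 do in each line. Of the 193 genes 60.6% in A673 and 51.3% in SKNMC do at that dose, and of all protein-coding genes 25.7% and 28.8%.

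The corepressors with which KRAB zinc finger proteins work decreased in shares near those of all protein-coding genes. Of a list of 30 genes for KRAB corepression and H3K9 methylation, 28 passed the filter, and 5 and 7 in A673 and 5 and 6 in SKNMC had decreased, shares of 17.9% and 25% in A673 and 17.9% and 21.4% in SKNMC. The shares of all protein-coding genes were 15.9% and 25.7% in A673 and 15.9% and 28.8% in SKNMC. TRIM28, the corepressor bound by KRAB, stood at 283, 344 and 315 FPKM in A673 and 221, 279 and 263 FPKM in SKNMC. SETDB1, the H3K9 methyltransferase it recruits, stood at 13.1, 6.703 and 6.63 FPKM in A673 and 20.9, 8.46 and 8.47 FPKM in SKNMC. SUV39H1, another H3K9 methyltransferase, stood at 11.9, 2.88 and 1.45 FPKM in A673 and 14.05, 3.03 and 1.698 FPKM in SKNMC, and FAM208A (TASOR), the scaffold of the HUSH complex, at 11.6, 1.76 and 2.21 FPKM in A673 and 22.02, 3.49 and 4.83 FPKM in SKNMC. SUV39H1, FAM208A and MBD1 had decreased in all 4 comparisons on the deposited scale. MORC2 had log2 changes of -1.55 and -1.25 in A673 and -1.35 and -0.48 in SKNMC. MPHOSPH8 and PPHLN1, the HUSH subunits besides FAM208A, had mean log2 changes of -0.47 and -0.30. HDAC1 and CHD3 had the highest means of the list, 0.55 and 0.56 on the deposited scale and 0.15 and 0.17 with ribosomal protein scaling. The mean of TRIM28 was 0.26 on the deposited scale and -0.14 with ribosomal protein scaling.

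Counted at 2-fold on (FPKM + 1), related zinc finger genes gave close shares. The 143 ZNF genes on chromosome 19 under the same filter decreased in 41.3% and 62.9% in A673 and 37.1% and 55.9% in SKNMC, and the 52 ZBTB, ZSCAN and ZKSCAN genes in 44.2% and 57.7% in A673 and 40.4% and 53.8% in SKNMC. The chromosome 19 genes had lower DMSO medians, 2.83 and 3.93 FPKM in A673 and SKNMC, compared with 5.75 and 6.47. The added 1 hides more of their change. Without it, a median of 39.2% and 21.4% of DMSO was left in A673 and 41.9% and 27.4% in SKNMC. In the 193 genes 44.6% and 27.6% was left in A673 and 56.7% and 38.8% in SKNMC. Of the 143, 2 and 14 decreased at least 4-fold in A673 and 2 and 9 in SKNMC. Of the 193, 14 and 30 did in A673 and 9 and 16 in SKNMC. With 1 library per condition, the differences between these groups and the 193 genes were not tested.

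A total of 44 of the 193 genes overlap a listed gene on the other strand, and 21 share over 30% of their 100-base transcript windows with other genes. The genes named here that overlap another on the opposite strand are ZNF3, ZNF7, ZNF48, ZNF75A, ZNF142, ZNF143, ZNF217, ZNF219, ZNF263, ZNF394, ZNF397, ZNF407, ZNF410, ZNF511, ZNF597, ZNF598, ZNF652, ZNF654, ZNF655, ZNF664, ZNF687, ZNF740, ZNF771, ZNF789, ZNF827, ZNF830 and ZNF839. Without the genes that overlap, 59 and 92 of 149 genes decreased in A673 (39.6% and 61.7%) and 49 and 73 in SKNMC (32.9% and 49.0%). Without those that share sequence the counts were 71 and 105 of 172 in A673 (41.3% and 61.0%) and 56 and 87 in SKNMC (32.6% and 50.6%). Of all 10383 protein-coding genes, from which no such genes were left out, 15.9% and 25.7% decreased in A673 and 15.9% and 28.8% in SKNMC.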

How the data were processed

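RNA from 6 cultures was sequenced, 1 library for each of 2 Ewing sarcoma lines and 3 conditions. The deposited table holds FPKM per gene, which the authors made by aligning reads with STAR to GRCh37 (hg19) and measuring expression against Ensembl 75 gene models; the methods name StringTie and the submitters' processing notes name Cufflinks. The table calls its values averages, while the labels give 1 library per condition. Its 4 columns of the authors' own log2 fold changes were not used. Read depth is not given in the sources used here, so no counting error could be attached to a value, and deviations between cultures could not be measured.

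Genes were filtered at more than 1 FPKM with DMSO in both lines, and changes were computed as log2 of (FPKM + 1) with THZ1 over DMSO, which understates the change of low genes. A gene was counted past 2-fold, beside the same share of 10383 protein-coding genes, and no test was made. The genes, the lists and the rule for named genes were chosen with earlier results of these data known. Named were the 10 lowest and 8 highest mean changes, the 5 highest DMSO levels, the 4 largest line differences and the 4 largest dose steps each way, 3 genes on each side of the threshold, members of 3 lists, and genes in runs of neighbours; ZNF259, ZNF267, ZNF654, ZNF710 and ZNF839 were named after their values were seen.

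Proteins were translated from the longest coding sequence per gene in GENCODE 44 lifted to GRCh37, in place of the RefSeq proteins planned. Classical fingers were found as C, 2 to 4 residues, C, 12 residues, H, 3 to 5 residues, H, and KRAB and SCAN domains with HMMER profiles built from these proteins (E-value under 0.0001). The KRAB profile was seeded with 39 proteins and the SCAN profile with only 2. Promoters came from RefSeq on GRCh38.p14, matched by symbol. Alternatives were another pseudocount, 3 scalings, other filters, a 1.5-fold threshold, and leaving out overlapping genes. Python 3.11.15 with pandas 2.3.3 was used.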

Additional observations from a re-analysis of the deposited data

How the results depend on the processing

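With 1 library per condition, no replicate could be left out and no paired analysis was possible. No median of the 193 genes changed sign under any alternative run. The following values moved, each given for 50 and 200 nM in A673 and then in SKNMC. With a pseudocount of 0.1 in place of 1, the median log2 changes were -1.11, -1.79, -0.80 and -1.33. With scaling to the 75th percentile they were -0.65, -1.04, -0.41 and -0.64, and with scaling to the median of ribosomal protein genes -0.97, -1.44, -0.95 and -1.41. These scalings moved the median of all protein-coding genes by 0.21, 0.29, 0.25 and 0.47 and by -0.20, -0.29, -0.36 and -0.50, so that relative to all genes the 193 lay lower by between 0.29 and 0.93 on the log2 scale. Scaling to a common sum moved it by at most 0.03.

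Requiring more than 5 FPKM with DMSO left 101 genes, of which 44, 68, 37 and 62 decreased (43.6%, 67.3%, 36.6% and 61.4%), with medians at 200 nM of -1.502 in A673 and -1.23 in SKNMC. Fewer genes were tested there, which lowers the counts, and the share of all protein-coding genes above 5 FPKM was not computed. Without the 1 FPKM minimum, 237 genes above 0 had medians of -0.68 and -0.996 in A673 and -0.81 at 200 nM in SKNMC. Requiring the mean of the 3 libraries of each line to be above 1 FPKM left 169 genes, with a median of -1.33 at 200 nM in A673. A threshold of 1.5-fold gave 124 decreased and 1 increased gene in A673 at 50 nM, and 102 and 2 in SKNMC. The backgrounds were 31.5% and 33.1% decreased, and the share of all protein-coding genes increased at 1.5-fold was not computed. At 200 nM this threshold gave 157 decreased genes (81.3%) in A673 and 146 (75.6%) in SKNMC, against backgrounds of 41.1% and 49.3%. Leaving out genes that share sequence was an alternative chosen after seeing the data. Of the mean changes of single named genes under another pseudocount or scaling, 64 moved and 444 did not, and the cause of these movements was not tested. The FPKM carry no depth, so for genes under 1 FPKM with THZ1 the size of a change rests on the pseudocount.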

Other observations

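By chromosome, the 193 genes were most numerous on chromosomes 16, 7 and 1, with 28, 20 and 18 genes. Of all 193, 42.0% and 60.6% had decreased in A673 at 50 and 200 nM and 33.7% and 51.3% in SKNMC, compared with 15.9%, 25.7%, 15.9% and 28.8% of all protein-coding genes. On chromosome 16, 16 of 28 genes had decreased in A673 at 50 nM and 16 at 200 nM, not all of them the same genes. In SKNMC 13 and 17 had decreased. The shares were 57.1%, 57.1%, 46.4% and 60.7%. On chromosome 18, 1 and 3 of 7 genes had decreased in A673 and 1 and 1 in SKNMC, among them ZNF397 at both doses in A673. Of the 7, ZNF407, ZNF532, ZNF516 and ZNF236 span over 100 kb each. On chromosome 17, 6 and 7 of 10 genes had decreased in A673 and 6 and 6 in SKNMC. These counts are values, with no test between chromosomes.

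Among the 193 genes, other measures of gene structure had lower correlations with the change than the span, whose rho was 0.46. Among other protein-coding genes the span had a rho of 0.09, smaller in size than those of exon number and transcript length. Across the 188 genes with a translated protein, Spearman's rho with the mean log2 change was 0.25 for the number of exons, 0.24 for transcript length and 0.14 for coding length, and across other protein-coding genes 0.16, -0.10 and -0.06. These are descriptions over genes that share libraries.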
